A study of Homo sapiens with 12 samples.

Results

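Expression of 42 genes for ribosome biogenesis and RNA polymerase I (Pol I) was examined in C4-2 prostate cancer cells treated with a PBK inhibitor (PBKi) or with vehicle. The genes were chosen as a list of nucleolar genes by symbol, and each symbol was matched to 1 of the 54127 gene identifiers in the deposited counts. All 42 had enough reads to be tested, among 14505 genes tested in all. C4-2 is a single cell line derived from LNCaP, an androgen-responsive prostate cancer line, and was grown in RPMI with 10% FBS. The question of the study was how inhibition of PBK (also called TOPK), a serine/threonine kinase of dividing cells, alters the transcriptome. The control group was 6 libraries of C4-2 cells given DMSO, and the treated group was 6 libraries of the same line given 1 µM PBKi, the catalytic inhibitor that the labels call TOPK32, for 6 h. The labels do not say whether replicates were separate cultures, so the p-values measure the spread between these samples, which may be technical.

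Ribosomes are assembled in the nucleolus. Pol I transcribes the ribosomal DNA into a long precursor RNA, small nucleolar ribonucleoproteins (snoRNPs) guide its chemical modification, and large complexes fold and cut it while ribosomal proteins join. The small and the large subunit then mature along separate routes and leave the nucleus. The enlarged nucleolus of prostate cancer cells has long been a feature that pathologists use, and many nucleolar genes are known targets of MYC.

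Reads on genes numbered 9663203 to 28029908 per library. DMSO replicate 5 had the fewest and was sequenced in 3 lanes, where every other library had 4. Reads outside annotated genes made up 5.74% to 6.96% of the total in DMSO and 5.94% to 9.30% in PBKi. PBKi replicates 3 and 6 had the most (9.30% and 8.83%). Results that rest on these 3 libraries are given with and without them. The luminal identity of the line was present in the counts, with all 9 prostate luminal markers over 1 CPM in DMSO. Their summed level was lower in PBKi (2440.2 to 3324 CPM) than in DMSO (4781 to 5747 CPM), led in level by KLK3, a target of the androgen receptor. Markers of other cell types were low in both groups. The sum of 10 immune markers was 2.26 to 4.36 CPM in DMSO and 2.48 to 5.09 CPM in PBKi, with CD2 and MS4A1 at 0 counts. The sum of 7 fibroblast and endothelial markers was 22.4 to 28.2 CPM in DMSO and 21.0 to 26.2 CPM in PBKi, and that of 6 basal markers 9.10 to 14.9 CPM and 10.2 to 13.1 CPM. The part of these levels in the results below was not tested.

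Promoter sequences are shown to set members at both ends of the range of log2 fold changes side by side. They are the 250 bases before the listed start site of FBL, WDR12 and NPM1, which had the largest falls, of DDX56, which rose, and of NOP10, which was not called and had the next most positive log2 fold change among members with an entry that is printed here. The sequences are those of RefSeq on GRCh38.p14, and capitals mark matches on either strand to 3 motifs (CACGTG, the E-box bound by MYC and its relatives, CCGGAAG, bound by ETS factors, and CCAAT, bound by NF-Y).
FBL (chr19:39846380-39846629, minus strand): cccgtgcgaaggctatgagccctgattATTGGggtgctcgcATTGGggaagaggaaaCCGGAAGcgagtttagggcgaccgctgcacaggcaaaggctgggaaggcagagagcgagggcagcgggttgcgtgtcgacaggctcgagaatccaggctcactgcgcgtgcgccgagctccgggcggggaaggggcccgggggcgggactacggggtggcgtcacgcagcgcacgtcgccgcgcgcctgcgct
WDR12 (chr2:202911674-202911923, minus strand): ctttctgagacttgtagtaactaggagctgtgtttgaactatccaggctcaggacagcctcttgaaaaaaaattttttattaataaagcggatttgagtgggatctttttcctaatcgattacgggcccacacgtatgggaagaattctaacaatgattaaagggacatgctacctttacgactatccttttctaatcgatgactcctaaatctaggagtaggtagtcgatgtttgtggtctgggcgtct
NPM1 (chr5:171387599-171387848, plus strand): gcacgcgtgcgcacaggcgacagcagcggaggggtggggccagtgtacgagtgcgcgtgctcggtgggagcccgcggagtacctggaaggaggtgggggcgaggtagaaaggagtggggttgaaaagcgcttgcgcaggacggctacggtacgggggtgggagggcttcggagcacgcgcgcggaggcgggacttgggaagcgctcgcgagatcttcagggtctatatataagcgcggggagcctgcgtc
DDX56 (chr7:44573909-44574158, minus strand): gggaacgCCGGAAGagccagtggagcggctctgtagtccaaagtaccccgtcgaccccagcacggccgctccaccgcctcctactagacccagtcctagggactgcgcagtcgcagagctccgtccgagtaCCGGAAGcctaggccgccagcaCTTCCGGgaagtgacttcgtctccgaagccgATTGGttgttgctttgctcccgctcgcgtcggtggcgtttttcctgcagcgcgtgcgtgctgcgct
NOP10 (chr15:34343137-34343386, minus strand): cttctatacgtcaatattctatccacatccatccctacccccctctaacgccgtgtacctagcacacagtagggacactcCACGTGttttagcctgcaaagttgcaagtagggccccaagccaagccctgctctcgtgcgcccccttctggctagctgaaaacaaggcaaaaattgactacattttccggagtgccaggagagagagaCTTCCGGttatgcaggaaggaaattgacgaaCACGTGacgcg
In the bases shown, WDR12 and NPM1 held no match, FBL and DDX56 held ETS and CCAAT matches, and NOP10 held E-box and ETS matches. In these bases FBL, which fell, and DDX56, which rose, held matches to the same motifs. After the start site, outside the bases shown, FBL also held an E-box match and NOP10 a CCAAT match.

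A minority of the ribosome biogenesis genes was called lower in PBKi than in DMSO, by small amounts. Of the 42 members, 10 were downregulated and 3 were upregulated at an adjusted p under 0.05 (the quasi-likelihood test of edgeR, with p-values adjusted over all genes tested), and 29 were not called. The downregulated members were FBL, WDR12, NPM1, NHP2, TAF1D, WDR75, TCOF1, DKC1, NOB1 and RRN3, and the upregulated members were RRP12, RRS1 and DDX56. In bulk samples, fewer cells of a type and less RNA per cell cannot be told apart.

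In the edgeR fit without covariates, the share of lower members was close to that of all genes tested. Lower calls made up 23.8% of the members and 21.5% of all genes tested, and higher calls made up 7.14% of the members and 20.1% of all genes tested. Calls in either direction were 31.0% of the members against 41.7% of all genes. Among the 9329 genes with a mean expression at least that of the lowest member, 26.7% were lower, 18.8% higher and 45.6% called in either direction. In this fit the lower share of the members was thus between both backgrounds, while their higher share was under both. By DESeq2, 13 members were lower and 3 higher, where 21.8% and 20.4% of genes tested were. By limma-voom the counts were also 13 and 3, where the shares of genes tested were 21.7% and 20.8%. The lower calls gained were DDX21, NCL and NOLC1 by DESeq2, and NCL, NOLC1 and NOP16 by limma-voom. Groups did not overlap for 4 lower members (9.68% of all genes tested) and 1 higher member (10.5%).

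Changes of the members were also small in size. Members had a median log2 fold change of -0.05, all genes tested one of -0.01, and the more highly expressed genes one of -0.04. Of the 42 members, 29 had a negative log2 fold change and 13 a positive one. Negative values were also those of 7521 of the 14505 genes tested and 5244 of the 9329 more highly expressed genes. The median absolute log2 fold change was 0.096 for members, 0.189 for all genes tested and 0.158 for the more highly expressed genes. No member reached an absolute log2 fold change of 0.5, which 14.4% of all genes tested did. Precision was not lower for the members, with a median standard error (SE) of 0.057 on the log2 scale against 0.083 over all genes, and the counts behind each value ranged from 120 to 50410 reads per library. For the 29 members that were not called, the lowest bound of a 95% interval of the log2 fold change was -0.354 (BOP1) and the highest was 0.282 (NOP10). These values are shown in the plot of log2 fold changes by role.

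**Figure D1:**
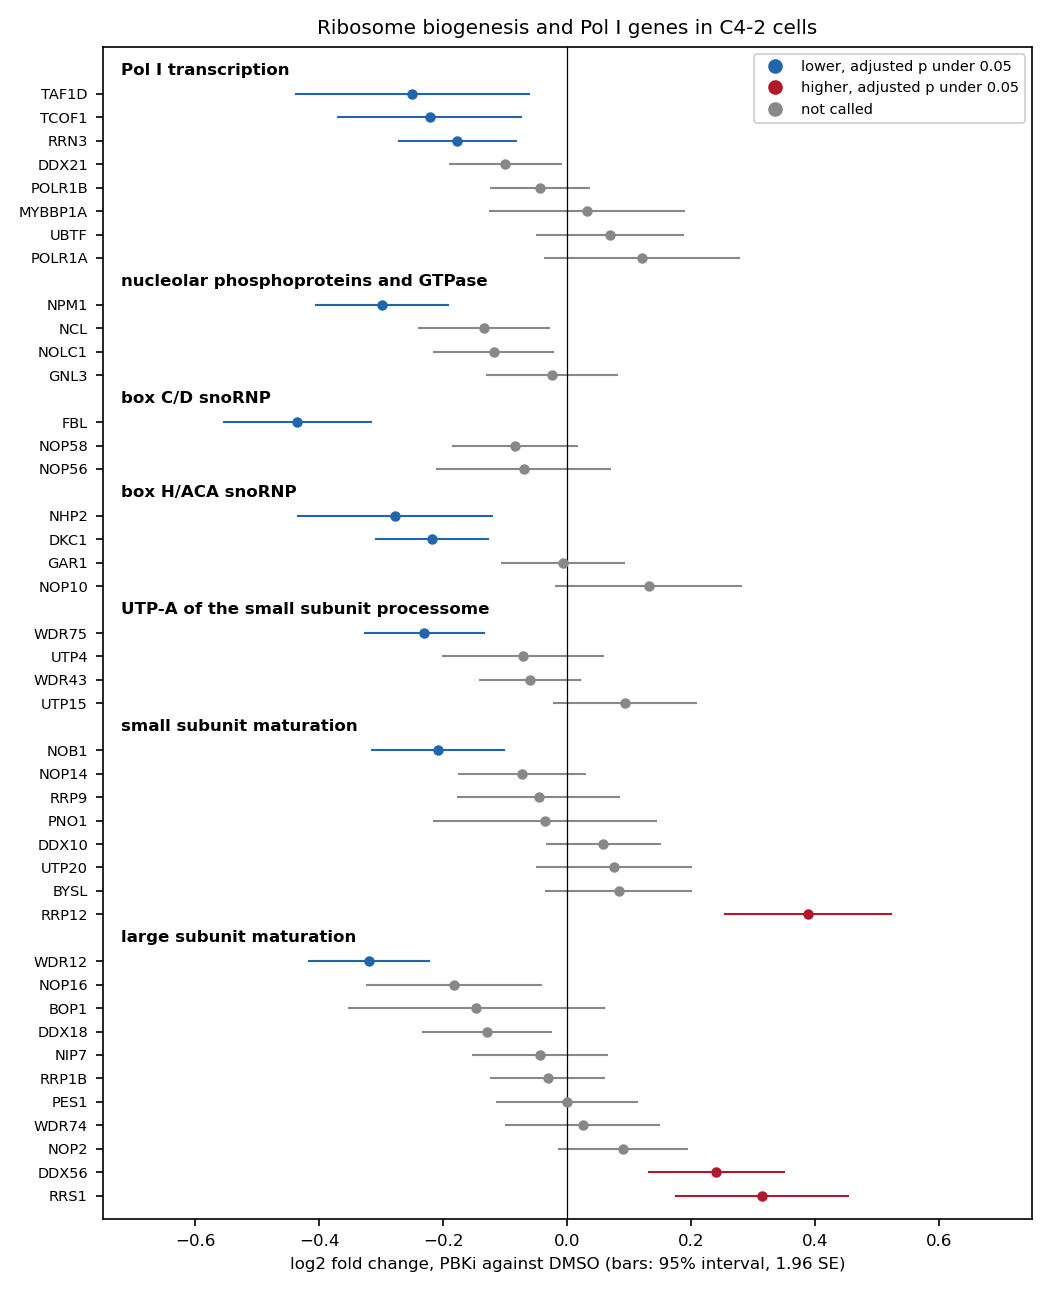
Log2 fold change of each of the 42 members in PBKi against DMSO (horizontal axis, n = 6 libraries per group), grouped by role, with bars for the 95% interval and colours for the call at an adjusted p under 0.05. Values run from -0.44 for FBL to 0.39 for RRP12, and most points lie close to the zero line.

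Summed over the 42 members, normalised expression was lower in every PBKi library. CPM, the read count scaled to library size with TMM factors, summed to 8686 to 9025 in DMSO and to 7821 to 8481 in PBKi, with no overlap between the groups. The members took 0.851% to 0.893% of the reads on genes in DMSO and 0.797% to 0.863% in PBKi, and on this scale the highest PBKi library, replicate 5, lay among the DMSO libraries. NCL and NPM1 alone made up 37.4% to 39.8% of the summed CPM in DMSO and 35.2% to 36.7% in PBKi. Without both, the sum was 5311 to 5571 CPM in DMSO and 4969.6 to 5367 CPM in PBKi, and the groups overlapped through PBKi replicate 5. Per kilobase of merged exons, the highest mean levels in DMSO were those of NPM1 (206 CPM per kb), NCL (189), NOLC1 (140.3) and FBL (135), and the lowest were those of BOP1 (3.38), POLR1A (3.47) and DDX10 (4.18). Exons were merged over all transcripts of a newer annotation than that of the counts, so these ranks depend on the annotation. Merged exons spanned 19.7 kb for POLR1A and 18.1 kb for DDX10, against 3.67 kb for BOP1.

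Among the 8 genes of Pol I transcription, 3 fell, where 21.5% of all genes tested were lower, and the other 5 were not called. Those of the 8 that fell were TAF1D, RRN3 and TCOF1. TAF1D is a subunit of selectivity factor SL1, which places Pol I on the promoter of the ribosomal DNA, RRN3 bridges Pol I to SL1, and TCOF1 encodes treacle, a scaffold of the ribosomal DNA. TAF1D (ENSG00000166012, chr11:93463114-93517557 on GRCh37, minus strand) ranged from 79.0 to 126 CPM in DMSO (median 103) and from 75.0 to 99.8 CPM in PBKi (median 88.0). The groups overlapped widely, and the lowest DMSO library was replicate 5. Its log2 fold change was -0.25 (SE 0.097, adjusted p = 0.0468), but the two-sided exact permutation test of the same gene gave p = 0.0758, and the call was lost in 8 of the 12 fits that left out 1 library. More than 10% of the exon bases of TAF1D are shared with other annotated genes, and the strand of the counting is not given in the sources used here, so such reads cannot be told apart. RRN3 went from 101 ± 4.37 to 89.4 ± 4.49 CPM (SD, n = 6), with a log2 fold change of -0.18 (SE 0.049, adjusted p = 0.00735). Only PBKi replicate 5, at 98.5 CPM, reached into the DMSO range of RRN3. TCOF1 went from 156 ± 20.5 to 134 ± 11.2 CPM (SD, n = 6), with a log2 fold change of -0.22 (SE 0.076, adjusted p = 0.0266). In DMSO replicate 5 TCOF1 stood at 198 CPM, above 142 to 153 CPM in the other DMSO libraries.

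POLR1A and POLR1B, the subunits of the active centre, were not called in the fit of all 12 libraries without covariates. POLR1A, the largest subunit (ENSG00000068654, chr2:86247339-86333278 on GRCh37, minus strand), ranged from 58.2 to 81.3 CPM in DMSO (median 66.1) and from 64.2 to 81.8 CPM in PBKi (median 73.5), so that the groups overlapped almost throughout. Its log2 fold change was 0.12 (SE 0.081, adjusted p = 0.243, exact permutation p = 0.225), and in replicates 1 to 3 alone it was called at 0.20 (adjusted p = 0.0201). POLR1B had 90.2 ± 1.78 CPM in DMSO and 87.4 ± 1.55 CPM in PBKi (SD, n = 6), the smallest spread in DMSO relative to its mean among the members. Its log2 fold change was -0.04 (adjusted p = 0.418). UBTF, which binds along the ribosomal DNA, had a log2 fold change of 0.07 (adjusted p = 0.387), and MYBBP1A, a nucleolar MYB-binding protein, one of 0.03 (adjusted p = 0.782), which was 0.13 without DMSO replicate 5 (adjusted p = 0.0316). DDX21, an RNA helicase of Pol I transcription and processing, went from 783 ± 28.6 to 731 ± 25.8 CPM (SD, n = 6), with a log2 fold change of -0.10 (adjusted p = 0.0923).

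The abundant nucleolar phosphoproteins had negative log2 fold changes, and NPM1 passed the test. NPM1 encodes nucleophosmin, a chaperone that forms the granular outer layer of the nucleolus. NPM1 (ENSG00000181163, chr5:170814120-170838814 on GRCh37, plus strand) ranged from 1559.9 to 1818 CPM in DMSO (median 1743) and from 1294 to 1478 CPM in PBKi (median 1399). All 6 PBKi libraries lay below all 6 DMSO libraries, the lowest PBKi value being that of replicate 6. This was a log2 fold change of -0.30 (SE 0.055, adjusted p = 0.000332, exact permutation p = 0.00216, the smallest that 6 against 6 libraries allow). By name the annotation holds 49 pseudogenes of NPM1, so part of its reads may match near-identical copies. Alignments that were not unique were not counted. NCL, or nucleolin, went from 1684 ± 75.1 to 1535 ± 102 CPM (SD, n = 6), with a log2 fold change of -0.13 (adjusted p = 0.0572). NOLC1, a scaffold of snoRNPs, went from 557 ± 24.1 to 513 ± 26.0 CPM (SD, n = 6), with a log2 fold change of -0.12 (adjusted p = 0.0640). GNL3, the GTPase nucleostemin (ENSG00000163938, chr3:52715172-52728513 on GRCh37, plus strand), ranged from 257 to 318 CPM in DMSO (median 302) and from 283 to 301 CPM in PBKi (median 291). The PBKi range of GNL3 lay inside the DMSO range, whose lowest value was replicate 5, and the log2 fold change was -0.02 (SE 0.054, adjusted p = 0.745, exact permutation p = 0.719).

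The largest fall of the 42 members was that of FBL, of the box C/D snoRNP. Fibrillarin, the FBL protein, is the enzyme that methylates the ribose of ribosomal RNA. FBL (ENSG00000105202, chr19:40325098-40337019 on GRCh37, minus strand) ranged from 273 to 319 CPM in DMSO (median 287) and from 181 to 232 CPM in PBKi (median 214). The groups did not overlap, with the lowest value in PBKi replicate 3 and the highest in DMSO replicate 5. FBL had a log2 fold change of -0.44 (SE 0.061, adjusted p = 2.25e-05, exact permutation p = 0.00216), a level in PBKi of 0.739 times that in DMSO. NOP56 and NOP58 form the protein core on which fibrillarin sits. NOP56 (ENSG00000101361, chr20:2633239-2639039 on GRCh37, plus strand) ranged from 227 to 299.5 CPM in DMSO (median 258) and from 216 to 279 CPM in PBKi (median 248). Its groups overlapped throughout, with a log2 fold change of -0.07 (SE 0.072, adjusted p = 0.456, exact permutation p = 0.426). NOP58 went from 169 ± 10.9 to 159 ± 6.76 CPM (SD, n = 6), with a log2 fold change of -0.08 (adjusted p = 0.205). No test of the difference between FBL and its partners was run.

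In the box H/ACA snoRNP, which turns uridines of ribosomal RNA into pseudouridine, 2 of 4 genes fell, where 21.5% of all genes tested did. DKC1 encodes dyskerin, the pseudouridine synthase, which also binds telomerase RNA. DKC1 went from 272 ± 11.1 to 233 ± 9.62 CPM (SD, n = 6) with no overlap between the groups, a log2 fold change of -0.22 (SE 0.047, adjusted p = 0.00120). NHP2 (ENSG00000145912, chr5:177576464-177580895 on GRCh37, minus strand) ranged from 37.6 to 56.9 CPM in DMSO (median 46.3) and from 36.0 to 42.2 CPM in PBKi (median 38.4). DMSO libraries spread more widely than PBKi libraries, and DMSO replicate 6 lay inside the PBKi range. NHP2 had a log2 fold change of -0.28 (SE 0.081, adjusted p = 0.0102, exact permutation p = 0.0195), and over 10% of its exon bases are shared with other genes. The estimate for NOP10, another core protein, was positive and was not called. NOP10 (ENSG00000182117, chr15:34631360-34635381 on GRCh37, minus strand) ranged from 123 to 163 CPM in DMSO (median 139) and from 136 to 166 CPM in PBKi (median 159.9). These ranges overlapped, and the log2 fold change was 0.13 (SE 0.077, adjusted p = 0.184, exact permutation p = 0.154). GAR1 had 29.2 ± 0.925 CPM in DMSO and 29.0 ± 1.03 CPM in PBKi (SD, n = 6), with a log2 fold change of -0.01 (adjusted p = 0.933).

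**Figure D2:**
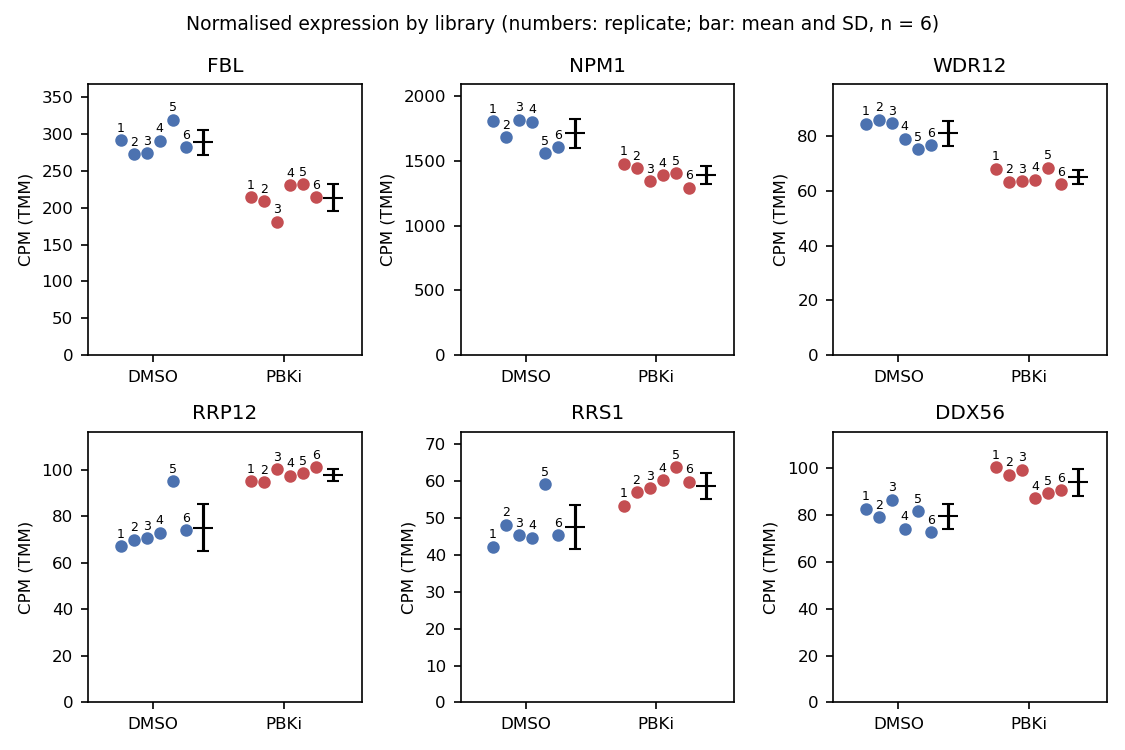
TMM-normalised CPM in every library for FBL, NPM1 and WDR12, the largest falls, and for RRP12, RRS1 and DDX56, the upregulated members; points are numbered by replicate and bars give the mean and SD of 6 libraries, on axes from 0. Groups are separate for FBL, NPM1, WDR12 and DDX56, whereas DMSO replicate 5 lies among the PBKi libraries for RRP12 (95.1 CPM) and RRS1 (59.1 CPM).

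UTP-A is the complex that binds the precursor RNA first, while it is still being transcribed, and opens the assembly of the small subunit processome. WDR75 was the member of this complex that fell. WDR75 (ENSG00000115368, chr2:190306172-190340278 on GRCh37, plus strand) ranged from 86.4 to 103 CPM in DMSO (median 97.8) and from 79.3 to 87.6 CPM in PBKi (median 81.7). The overlap came from DMSO replicate 5, the lowest DMSO library, and PBKi replicate 5, the highest PBKi library. Its log2 fold change was -0.23 (SE 0.050, adjusted p = 0.00123, exact permutation p = 0.00433). UTP15 (ENSG00000164338, chr5:72861268-72879205 on GRCh37, plus strand) ranged from 50.4 to 66.8 CPM in DMSO (median 60.2) and from 59.5 to 66.0 CPM in PBKi (median 63.7). PBKi values of UTP15 lay within the DMSO range, with a log2 fold change of 0.09 (SE 0.059, adjusted p = 0.222, exact permutation p = 0.102). UTP4 and WDR43 had log2 fold changes of -0.07 (adjusted p = 0.408) and -0.06 (adjusted p = 0.269).

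Later factors of the small subunit changed in opposite directions. NOB1 is the endonuclease that makes the final cut at the 3′ end of the small subunit RNA, and PNO1 is its partner. NOB1 (ENSG00000141101, chr16:69775774-69788829 on GRCh37, minus strand) ranged from 71.5 to 83.3 CPM in DMSO (median 77.4) and from 61.8 to 72.2 CPM in PBKi (median 68.02). The highest PBKi library, replicate 4, lay just above the lowest DMSO library, replicate 3. For NOB1 the log2 fold change was -0.21 (SE 0.055, adjusted p = 0.00556, exact permutation p = 0.00433). RRP12, which takes part in the maturation and export of pre-ribosomes, rose. RRP12 (ENSG00000052749, chr10:99116115-99185833 on GRCh37, minus strand) ranged from 67.2 to 95.1 CPM in DMSO (median 71.7) and from 94.7 to 101 CPM in PBKi (median 97.8). All DMSO libraries but replicate 5 lay between 67.2 and 74.0 CPM, and that library alone made the groups overlap. RRP12 had a log2 fold change of 0.39 (SE 0.069, adjusted p = 0.000242, exact permutation p = 0.00433), the largest rise of the 42. The remaining 6 genes were not called. PNO1 had a log2 fold change of -0.04, NOP14 of the processome -0.07, RRP9 of the U3 snoRNP -0.05, the helicase DDX10 0.06, UTP20 0.08 and BYSL, or bystin, 0.08, with adjusted p-values from 0.279 to 0.781.

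Large subunit factors also held genes of both directions. WDR12, PES1 and BOP1 form the PeBoW complex, which is needed for processing of the large subunit RNA, and WDR12 was the member of it that fell. WDR12 (ENSG00000138442, chr2:203738984-203879521 on GRCh37, minus strand) ranged from 75.2 to 86.0 CPM in DMSO (median 81.9) and from 62.6 to 68.5 CPM in PBKi (median 63.8). The groups did not overlap, and the log2 fold change was -0.32 (SE 0.050, adjusted p = 7.10e-05, exact permutation p = 0.00216). PES1 had 159.8 ± 15.6 CPM in DMSO and 159.6 ± 4.38 CPM in PBKi (SD, n = 6), with a 95% interval of the log2 fold change from -0.11 to 0.11. BOP1, the lowest member, had 12.4 ± 2.71 CPM in DMSO and 11.1 ± 0.546 CPM in PBKi (SD, n = 6), with a log2 fold change of -0.15 (SE 0.106, adjusted p = 0.282) that was -0.04 without DMSO replicate 5 (adjusted p = 0.680).

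RRS1 and DDX56 rose. RRS1 brings the ribonucleoprotein of the smallest large-subunit RNA to the pre-ribosome, and DDX56 is a nucleolar RNA helicase. RRS1 (ENSG00000179041, chr8:67341249-67342968 on GRCh37, plus strand) ranged from 42.2 to 59.1 CPM in DMSO (median 45.3) and from 53.3 to 63.8 CPM in PBKi (median 58.9). DMSO replicate 5 was again the only DMSO library within the PBKi range. For RRS1 the log2 fold change was 0.31 (SE 0.072, adjusted p = 0.00195, exact permutation p = 0.00866). DDX56 (ENSG00000136271, chr7:44605403-44614650 on GRCh37, minus strand) ranged from 72.8 to 86.6 CPM in DMSO (median 80.3) and from 87.1 to 100.5 CPM in PBKi (median 93.9). The groups of DDX56 did not overlap, though the gap between them was narrow. The log2 fold change was 0.24 (SE 0.056, adjusted p = 0.00247, exact permutation p = 0.00216). The helicase DDX18 (-0.13, adjusted p = 0.0593) and NOP16 (-0.18, adjusted p = 0.0521) had negative log2 fold changes short of the threshold. NOP2, a cytosine methyltransferase of the large subunit RNA, had a log2 fold change of 0.09 (adjusted p = 0.187). WDR74 (0.02), RRP1B (-0.03) and NIP7 (-0.04) were near 0 on the same log2 scale.

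**Figure D3:**
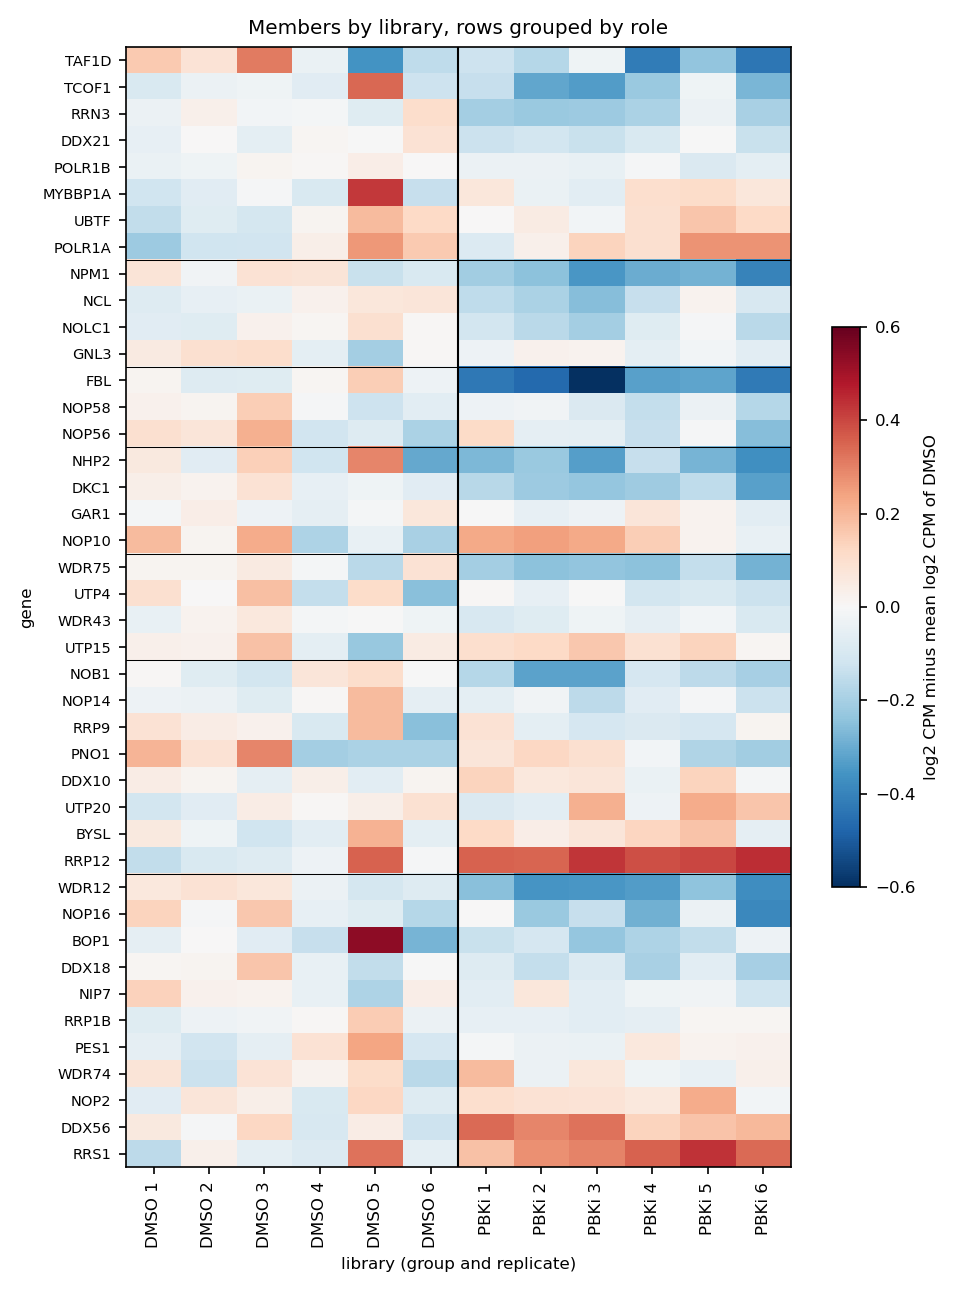
Log2 CPM of each member (rows, grouped by role) in each library (columns) minus the mean log2 CPM of the gene in DMSO, with blue for lower and red for higher. FBL, NPM1 and WDR12 are blue in all 6 PBKi libraries, RRP12, RRS1 and DDX56 are red, and DMSO replicate 5 has strong red cells such as BOP1 (17.7 CPM against 10.1 to 12.2 CPM in the other DMSO libraries).

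DMSO replicate 5 was the highest of the 6 DMSO libraries for 19 members and the lowest for 11, and over all genes tested it was the highest for 30.0% and the lowest for 24.8%. Without it, 12 members were lower (22.0% of genes tested) and 4 higher (22.8%). The log2 fold change without this library was 0.47 for RRP12 (adjusted p = 3.71e-07), 0.38 for RRS1 (adjusted p = 2.02e-05) and -0.14 for TCOF1 (adjusted p = 0.0422). The members called without this library and not with it were MYBBP1A (0.13, adjusted p = 0.0316), NOP16 (-0.195, adjusted p = 0.0417) and DDX18 (-0.15, adjusted p = 0.0148). Without PBKi replicates 3 and 6, 6 members were lower (14.1% of genes tested) and 3 higher (15.7%). FBL (-0.37), WDR12 (-0.29), NPM1 (-0.25), WDR75 (-0.20), DKC1 (-0.18) and NOB1 (-0.17) were still called, and the log2 fold changes of TAF1D (-0.25), NHP2 (-0.23), TCOF1 (-0.17) and RRN3 (-0.15) were no longer past the threshold with 4 PBKi libraries. All 3 upregulated members were still called.

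Replicates 1 to 3 and 4 to 6 were also fitted apart, since the second principal component of the libraries separates these sets in both groups, and the labels name no batch. In replicates 1 to 3 alone, 12 members were lower (21.3% of genes tested) and 4 higher (22.6%). The calls gained there were POLR1A (0.20), NOP16 (-0.21) and DDX18 (-0.16). With the set as a covariate over all 12 libraries, 14 members were lower (25.5% of genes tested) and 4 higher (23.1%). Both shares of genes tested were above those of the fit without covariates, 21.5% and 20.1%. NCL (-0.13, adjusted p = 0.0164), NOLC1 (-0.12, adjusted p = 0.0290), NOP16 (-0.18, adjusted p = 0.0198), DDX18 (-0.13, adjusted p = 0.0255) and NOP10 (0.14, adjusted p = 0.0279) gained calls. In replicates 4 to 6 alone, 3 were lower (8.48% of genes tested), namely FBL, NPM1 and WDR12, and 0 were higher (9.08%) by edgeR's adjusted p. At an unadjusted p under 0.05, 6 were lower and 4 higher. The share of all genes at the unadjusted threshold was not computed, so these counts have no background. FBL had log2 fold changes of -0.47 in the lower-numbered set and -0.40 in the higher-numbered set, WDR12 of -0.38 and -0.24, and NPM1 of -0.31 and -0.28. Those of RRP12 were 0.49 and 0.30, those of RRS1 0.33 and 0.31, and those of DDX56 0.27 and 0.23, in the same order. All 13 called members, and 36 of the 42, had the same sign in both sets, from which together the calls were made.

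**Figure D4:**
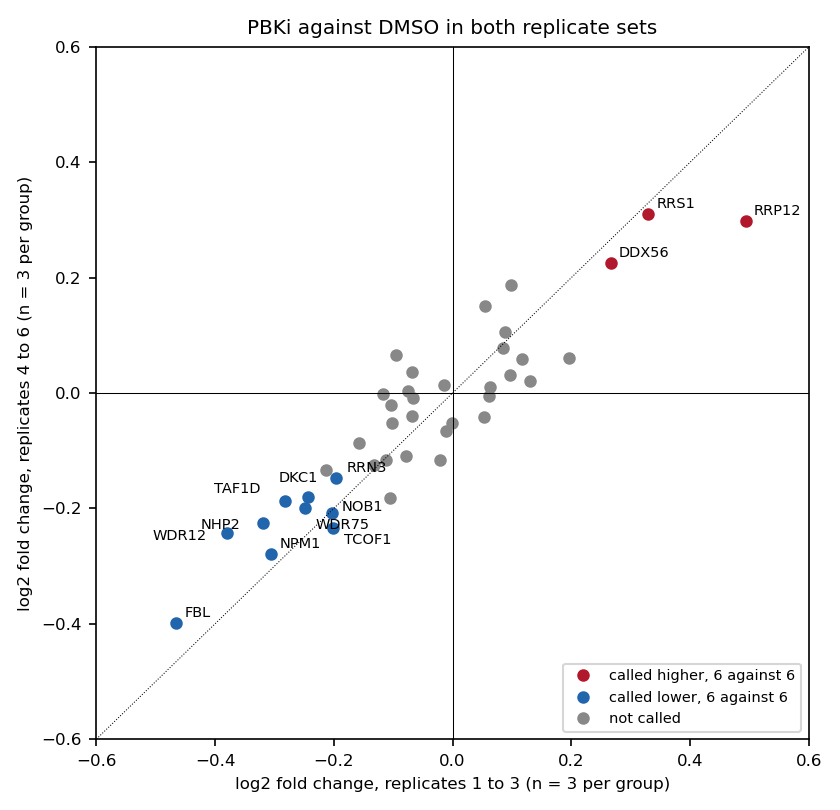
Log2 fold change of the 42 members in PBKi against DMSO in replicates 1 to 3 (horizontal axis) and in replicates 4 to 6 (vertical axis), with 3 libraries per group in each set and a dotted line of equality. The 10 members called lower lie in the lower left and the 3 called higher in the upper right, with RRP12 further from 0 in replicates 1 to 3 (0.49) than in replicates 4 to 6 (0.30).

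Scaling by library size alone, in place of TMM factors, gave 8 lower (16.6% of genes tested) and 4 higher members (24.8%). On that scale 2402 of all genes tested were lower and 3602 higher, against 3125 and 2921 with TMM, and the median of all genes was 0.03 in place of -0.01. The median of the members was then -0.01.

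Other genes of the pathway, 140 by a list written from their known roles, gave similar shares. Of these, 136 were tested, 29 fell (21.3%) and 11 rose (8.09%), with a median log2 fold change of -0.06. Of all genes tested, 21.5% fell and 20.1% rose. Among 16 further subunits and factors of Pol I, 5 fell (31.25%). They were the subunits POLR1H, POLR2H, POLR1C (log2 fold change -0.24, adjusted p = 0.0101) and POLR2F (-0.20, adjusted p = 0.0310) and the SL1 subunit TAF1B (-0.25, adjusted p = 0.0197), of which the last 3 were named after their values were seen. POLR1H, a small subunit of Pol I, went from 12.6 ± 1.24 to 9.48 ± 0.865 CPM (SD, n = 6), with a log2 fold change of -0.42 (adjusted p = 0.000758). POLR2H, a subunit shared by all nuclear RNA polymerases, went from 142 ± 16.8 to 107 ± 7.51 CPM (SD, n = 6), also with a log2 fold change of -0.42 (adjusted p = 0.000211). Groups did not overlap for either gene.

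Of 42 other small subunit factors tested, 7 fell (16.7%) and 4 rose (9.52%), against 21.5% and 20.1% of all genes tested. The largest changes were the fall of DIMT1, an adenosine dimethyltransferase of the small subunit RNA (log2 fold change -0.40, adjusted p = 0.000382), and the rise of UTP3 of the processome (0.29, adjusted p = 0.000442). KRR1 (-0.29, adjusted p = 0.00251) and NOL6 (0.24, adjusted p = 0.00388), also of the processome, followed. Of 48 other large subunit factors, 8 fell (16.7%) and 6 rose (12.5%). EFL1 and ZNF622, which act in the last steps of large subunit maturation in the cytoplasm, rose by log2 fold changes of 0.45 (adjusted p = 1.31e-05) and 0.35 (adjusted p = 5.21e-05) with no overlap between groups. NOP53 (-0.34, adjusted p = 0.0178) and the export adaptor NMD3 (-0.25, adjusted p = 0.00721) fell with overlapping groups.

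Among 8 factors that assemble snoRNPs, 4 fell (50%) and 0 rose, against 21.5% and 20.1% of all genes tested. RUVBL1, an ATPase of the R2TP chaperone complex, went from 291 ± 18.5 to 223 ± 13.1 CPM (SD, n = 6), with a log2 fold change of -0.39 (adjusted p = 2.53e-05) and no overlap, and PIH1D1 of the same complex had -0.32 (adjusted p = 0.000943). Of 14 genes of the RNA exosome, which trims precursor RNA, 5 fell (35.7%) and 1 rose (7.14%). EXOSC5 (-0.37, adjusted p = 0.000679) and EXOSC2 (-0.28, adjusted p = 0.00314) fell, whereas EXOSC6 rose from 32.2 ± 2.64 to 43.5 ± 3.16 CPM (SD, n = 6), with a log2 fold change of 0.44 (adjusted p = 3.50e-05). All 3 encode subunits of the same exosome core. Of 8 proteins of RNase MRP and RNase P, 0 were called by edgeR, DESeq2 or limma-voom. At an unadjusted p under 0.05 by edgeR 1 was lower and 1 higher, and the share of all genes at that threshold was not computed.

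RNA polymerase III makes the smallest ribosomal RNA and the transfer RNAs. The 22 genes listed for it mix its subunits with transcription factors and the regulator MAF1. Of these 22 genes, 7 fell (31.8%) and 2 rose (9.09%), with a median log2 fold change of -0.06. Over all genes tested, 21.5% fell and 20.1% rose. BDP1, of initiation factor TFIIIB, went from 190.4 ± 30.7 to 139.9 ± 18.6 CPM (SD, n = 6), with a log2 fold change of -0.44 (adjusted p = 0.00158). POLR3G fell (-0.34, adjusted p = 0.00661), while POLR3C (0.33, adjusted p = 0.00185) and POLR3B (0.21, adjusted p = 0.00177) rose without overlap between groups. The shares called in each list are shown in the plot of genes called by list.

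**Figure D5:**
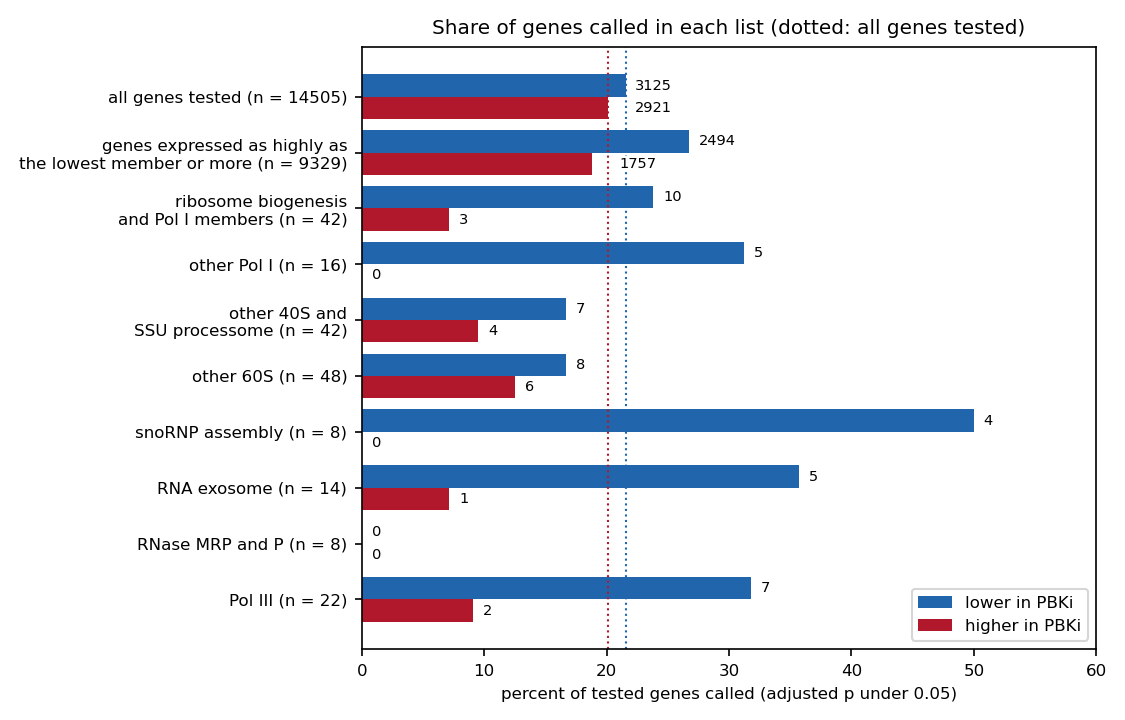
Percent of tested genes called lower (blue) and higher (red) in PBKi at an adjusted p under 0.05 for all genes tested, for genes expressed at least as highly as the lowest member, for the 42 members and for lists of related genes, with the number called at each bar and dotted lines at the shares of all genes tested. Higher calls are 7.14% of the members and 20.1% of all genes, and lower calls are 23.8% and 21.5%.

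Some of the members also share features that the list did not use. On the same strand, snoRNA genes lie within the bounds of 7 members (TAF1D, NCL, GNL3, NOP56, NOP58, DKC1 and WDR43). The share of such genes among all genes tested was not taken. All 7 had negative log2 fold changes, of which 2 were called, with a median of -0.08. The median of the 35 members without snoRNA genes was -0.04, with 22 negative values, 8 lower and 3 higher. Of all genes tested, 21.5% were lower. The value of GNL3, 1 of the 7, was -0.02 and changed sign in some alternatives. The difference between both sets was not tested. Promoter entries, from 250 bases before to 50 bases after the start site, matched 34 of the 42 members. The E-box CACGTG was found in 12 of these 34 windows (35.3%), in 10.3% of 10650 tested genes with an entry and in 7.44% of all 27305 entries. The ETS motif CCGGAAG was found in 13 windows (38.2%), against 19.2% of tested genes and 10.7% of all entries. CCAAT was found in 14 (41.2%), close to the 37.0% of tested genes. TATAAA and the cyclic AMP response element TGACGTCA were each found in 1 window. Matches were searched on both strands, and overlapping matches of different motifs were each counted. Of the 12 members with an E-box, 1 was lower, namely FBL, whose E-box lies after the start site, and the median log2 fold change was -0.02. Among the 22 without it, 8 were lower and 1 higher, and the median was -0.09. With the ETS motif, 3 of 13 were lower and 1 higher (median -0.05), and without it 6 of 21 were lower (median -0.04). With CCAAT, 4 of 14 were lower and 1 higher (median -0.06), and without it 5 of 20 were lower (median -0.04). Differences between these sets were not tested.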

How the data were processed

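C4-2 cells were treated with DMSO or PBKi and sequenced as single-end 40-base reads from an mRNA library kit. Per the labels and the study's methods, the authors aligned reads to GRCh37 with TopHat2 2.0.4 and counted reads per gene with HTSeq 0.5.3p9; the deposited values are raw counts per gene and lane, without normalisation. Lanes of a library were summed. Reads outside genes (5.74% to 9.30%) and ambiguous reads (3.87% to 4.35%) were left out, as shares of these and the reads on genes. Alignments that were not unique, 40.9 to 46.6 per 100 reads on genes, were left out too and are not part of these shares.

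Genes reaching 10 counts in 6 or more libraries were tested with TMM factors and the quasi-likelihood test of edgeR 4.0.16 (R 4.3.3), PBKi against DMSO, 6 libraries each, without covariates. The authors used DESeq 1.10.1. Benjamini-Hochberg adjustment was made over all genes tested, and the SE is the absolute log2 fold change divided by the square root of F. Exact permutation tests were two-sided, on log2 CPM (prior count 2). The procedure was tested on simulated data with log2 fold changes of 0.5 and 1 in either direction and the same dispersion for all genes. It recovered 80.9% of changes of -0.5 and 74% of changes of 0.5. Smaller changes, such as those of the members, were not simulated. Gene positions and merged exon lengths came from GENCODE 44 mapped to GRCh37, while the authors counted on an older annotation.

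The members, gene lists and roles were chosen with earlier results of these data known. Values per group were given in full for the largest fall and the largest rise (or smallest fall) within each role and for every member called higher. In each other list, the 2 largest falls and the 2 largest rises among called genes at a mean log2 CPM of 3 or more were named. Alternatives were RLE, upper quartile and library size scaling, other count filters, DESeq2 1.42.0, limma-voom (limma 3.58.1), a replicate block, a covariate for replicates 1 to 3 against 4 to 6, each set alone, lanes 6 to 8, other thresholds and leaving out libraries. Precision depends on depth, 9663203 to 28029908 reads on genes per library, and on the spread between libraries of a group. A few listed symbols of related genes were not matched and were not analysed here.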

Additional observations from a re-analysis of the deposited data

Results flagged for a closer look

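Single libraries stood far from the other 5 of their group (by Dixon's criterion on the gap over the range) in 9 of 84 groups of member values (10.7%, where chance gives about 5%), and 7 of these were DMSO replicate 5. In DMSO replicate 5 TCOF1 stood at 198 CPM (others 142 to 153), MYBBP1A, a nucleolar MYB-binding protein, at 138 (others 93.7 to 103), NOP14 of the small subunit processome at 119 (others 98.8 to 104), and RRP12 at 95.1 (others 67.2 to 74.0). In the same library BOP1 of the PeBoW complex stood at 17.7 CPM (others 10.1 to 12.2), RRP1B at 91.7 (others 78.5 to 82.9) and RRS1 at 59.1 (others 42.2 to 48.1). In PBKi replicate 5 RRN3 stood at 98.5 CPM (others 86.6 to 88.6) and DDX21 at 781 (others 714 to 734). Reads outside annotated genes, which enter no comparison, made up 9.30% in PBKi replicate 3 and 8.83% in PBKi replicate 6, above the DMSO range of 5.74% to 6.96%. The cause of these values was not tested.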

How the results depend on the processing

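Of 1050 log2 fold changes of members under alternatives, 945 kept their direction and side of the threshold, 31 lost and 29 gained a call, and 45 changed sign, all of 9 members near 0. FBL, NPM1 and WDR12 were called in 25 of 25 alternatives, TCOF1 in 19 and TAF1D in 10, and the log2 fold change of TAF1D was -0.20 with library size alone (adjusted p = 0.120).

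Same-numbered DMSO and PBKi libraries had correlations of deviations of 0.205, 0.108, 0.256, 0.299, 0.0887 and 0.234 for replicates 1 to 6. They were not set against those of libraries with different numbers, so they do not settle whether the numbers are pairs. With the replicate block, 14 members were lower and 5 higher, with calls gained by NCL (-0.14, adjusted p = 0.0183), NOLC1 (-0.12, adjusted p = 0.0325), NOP16 (-0.18, adjusted p = 0.00659), DDX18 (-0.13, adjusted p = 0.0326), POLR1A (0.12, adjusted p = 0.0373) and NOP10 (0.14, adjusted p = 0.0273), 3803 of all genes were lower and 3485 higher, 4 RNA polymerase III genes were higher, and the PES1 log2 fold change was 0.0035.

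With library size alone, the members' median was -0.0052, and other pathway genes had 19 lower, 20 higher and a median of -0.0127; 4 RNA polymerase III genes were higher. With the covariate for the replicate sets, 4 were higher. In replicates 4 to 6 alone, 3 members were lower and 0 higher, with 5 and 5 other pathway genes and 2 and 0 RNA polymerase III genes. Without PBKi replicates 3 and 6, 6 members, 12 other pathway genes and 4 RNA polymerase III genes were lower. At an adjusted p under 0.01, 16 other pathway genes were lower. With a change of at least 0.5 on the log2 scale also required, 0 members, 0 other pathway genes and 0 RNA polymerase III genes were called in either direction.

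Leaving out 1 library at a time gave 8 to 12 lower and 3 to 4 higher members (median -0.070 to -0.038), 20 to 36 lower and 11 to 16 higher other pathway genes, and 7 lower and 2 to 4 higher RNA polymerase III genes. The highest of these last counts was without DMSO replicate 5. TAF1D lost its call without any 1 of DMSO replicates 1 to 4 or PBKi replicates 2, 4, 5 and 6, and TCOF1 without PBKi replicate 2, 3 or 6.

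Signs changed for PES1 at 0.0026 (RLE), 0.0491 (library size), 0.0215 (upper quartile), 0.0045 (no filter), 0.0219 (at least 50 counts), 0.0033 (DESeq2), 0.0057 (limma-voom), 0.0009 (covariate), 0.0538 (replicates 1 to 3), 0.0134 (lanes 6 to 8) and 0.0182 (without PBKi replicates 3 and 6). For GAR1 the values were 0.0405 (library size), 0.0132 (upper quartile), 0.0137 (at least 50 counts), 0.0146 (replicates 4 to 6) and 0.0226 (without PBKi replicates 3 and 6). With library size alone POLR1B had 0.0043, GNL3 0.0220, RRP9 0.0017, PNO1 0.0098, RRP1B 0.0165 and NIP7 0.0026. In replicates 4 to 6 alone GNL3 had 0.0360, PNO1 0.0665, WDR74 -0.0049 and NIP7 0.0042. With 1 library left out, log2 fold changes ran from -0.0593 to 0.0019 for GNL3, -0.0247 to 0.0149 for GAR1, -0.0698 to 0.0296 for PNO1, -0.0136 to 0.0520 for PES1, -0.0076 to 0.0486 for WDR74 and -0.0479 to 0.0011 for RRP1B. The cause was not tested.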
